A study of Mus musculus with 6 samples.

Results

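A set of 10 genes that mark young neurons by their cytoskeleton, surface or RNA-binding proteins was followed in Fkbp8 mutant and wildtype mouse embryos: Tubb3, Stmn2, Elavl3, Elavl4, Dcx, Gap43, Nefm, Nefl, Ina and Cntn2. They were chosen by name. Of these 10 genes, 9 had a probe that carried their symbol (10 probes among 34967 for genes, with 2 for Dcx), and 7 were bright enough to be tested, among 21688 tested probes for 13307 named genes and further unnamed ones. Gap43 is not analysed here, and Dcx and Cntn2 had probes too dim for the test. At this embryonic stage the first neurons of the spinal cord leave the cell cycle. As a neuron is born it switches on class III beta-tubulin and the neuronal Elav proteins, which bind and stabilise messenger RNAs rich in U and AU. Proteins that remodel microtubules and growth cones, axonal adhesion molecules and the neurofilament subunits mark the outgrowth of the axon that follows.

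The samples were posterior tissue, from just behind the forelimb bud, of embryos at embryonic day 9.5 from crosses between heterozygous carriers of an Fkbp8 mutation, which the labels do not describe further. There were 3 samples labelled Fkbp8 mutant (replicates a, b and c) and 3 labelled wildtype (replicates d, e and f), each hybridized to its own 1-colour CodeLink Mouse Whole Genome array. No treatment or strain is given, and the source label of mutant a speaks of embryos where the others name a single embryo, so whether that sample is a pool remains unsettled. Nothing in the labels says that the other samples of a group came from separate litters, so p-values here reflect only the spread among 6 arrays, part of which may be technical. The tissue holds many cell types besides neural tube. In such bulk RNA, fewer neurons and less RNA per neuron cannot be told apart.

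Between 57.6% (mutant c) and 61.8% (wildtype f) of gene probes per array were above background, meaning that the scanner software marked the spot as good or saturated. Fkbp8, which encodes a membrane-anchored protein of the FK506-binding family, had log2 intensities of 6.28, 6.30 and 6.11 in mutants a, b and c and of 10.57, 10.74 and 10.68 in wildtypes d, e and f. All 3 mutant spots were not above background, and its level was at least 18.8-fold lower there (limma adjusted p = 1.18e-07). The dissection was checked with markers of position. Of 8 genes of the posterior trunk (Hox genes of the posterior groups and Cdx1), 8 were tested and 7 were above background on all 6 arrays. Otx2, which marks the forebrain and midbrain in front of the dissected part, was above background on no array, while Six3, En1, Emx2, En2 and Lhx2 of the same list were bright enough to be tested. The sexes of the embryos followed the groups. Xist, the RNA that coats the silenced X chromosome in female cells, was detected above background in 3 wildtypes and 0 mutants, and Y-linked Eif2s3y in 3 mutants and 0 wildtypes. Genotype and sex therefore cannot be told apart for any gene below.

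None of the 7 tested neuronal markers passed the test for a difference between mutant and wildtype. The test was limma's moderated test on log2 intensities with Benjamini-Hochberg adjustment over all 21688 tested probes and a threshold of 0.05, which 0.12% of the probes passed (0.0646% higher and 0.0553% lower in mutants). The adjusted p-values of the 7 markers ran from 0.331 to 0.988. At an unadjusted p under 0.05 there were 2 markers, both higher in mutants (of all tested probes 12.2% were under that threshold, 6.43% higher and 5.81% lower in mutants). The values of 3 markers, Elavl3, Elavl4 and Tubb3, were higher on every mutant array than on any wildtype array, a separation that 11.2% of all tested probes showed in this direction and 19.7% in either. No marker was separated with lower values in mutants, where 8.56% of all probes were. The median log2 fold change of the 7 markers was 0.0038, against 0.0085 over all tested probes, and their median absolute change was 0.09 on the log2 scale, as over all tested probes (0.09). Of the 7, 6 were above background on all 6 arrays, and Nefm was so on 2 arrays of each group.

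**Figure D1:**
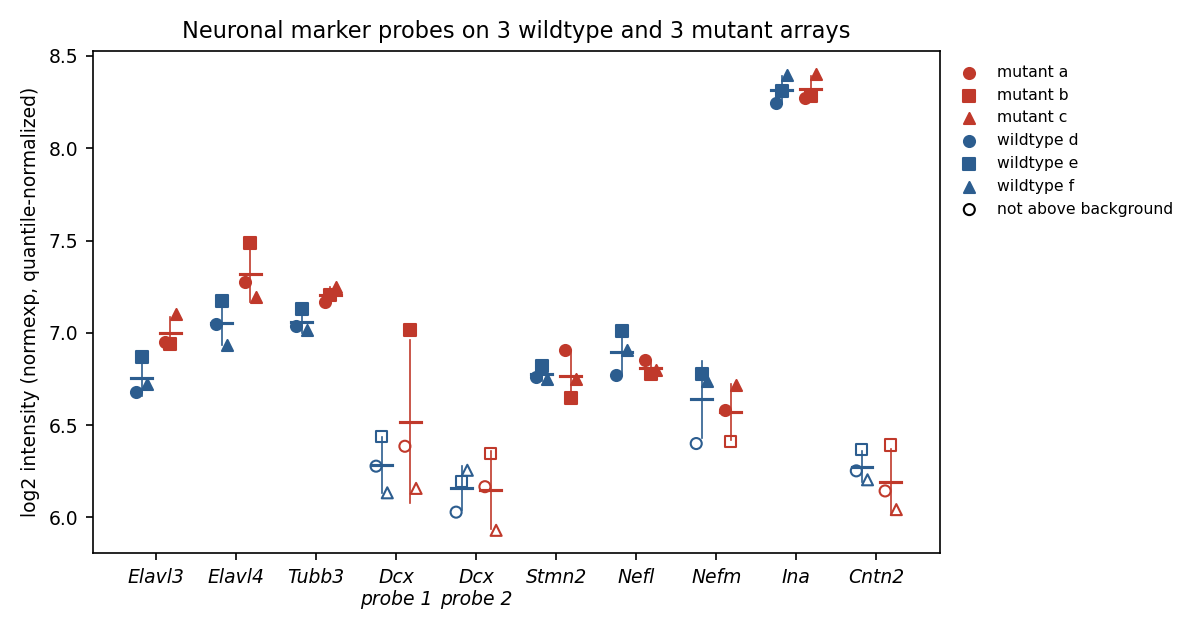
Log2 intensity (vertical axis, after normexp background correction and quantile normalization) of each neuronal marker probe, with wildtype arrays in blue and mutant arrays in red. Points are arrays, open where the spot was not above background, horizontal bars are means and thin vertical lines span 1 SD (n = 3 each), and levels of different probes are not comparable. The red points of Elavl3, Elavl4 and Tubb3 all lie above the blue ones, those of Stmn2, Nefl, Nefm and Ina overlap them, and Cntn2 and the second Dcx probe have open points only.

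Elavl3 and Elavl4 encode the neuronal RNA-binding proteins HuC and HuD, which carry RNA recognition motifs and are made as progenitors become neurons. Both probes were above background on all 6 arrays, but dim, with median signals of 1.33 times (Elavl3) and 1.87 times (Elavl4) the local background after its subtraction.

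Elavl3 had log2 intensities of 6.95, 6.94 and 7.10 in mutants a, b and c and of 6.68, 6.87 and 6.72 in wildtypes d, e and f. The groups did not overlap, and wildtype e lay closest to the mutants. Its mean was 6.998 ± 0.089 (SD, n = 3) in mutants and 6.76 ± 0.10 (SD, n = 3) in wildtype, a log2 fold change of 0.24 (SE 0.09, 95% interval 0.05 to 0.44) that did not pass (limma adjusted p = 0.331). Permuting the array labels exactly (two-sided) gave p = 0.1, below which no comparison of 3 with 3 arrays can go.

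Elavl4 had log2 intensities of 7.27, 7.49 and 7.19 in mutants a, b and c and of 7.05, 7.18 and 6.93 in wildtypes d, e and f. Mutant b was the highest, and mutant c and wildtype e almost met. The means were 7.32 ± 0.15 (SD, n = 3) in mutants and 7.05 ± 0.12 (SD, n = 3) in wildtype, and the log2 fold change of 0.27 (SE 0.10, 95% interval 0.03 to 0.50) did not pass (limma adjusted p = 0.356; exact two-sided permutation p = 0.1). With median centring of the arrays, or with no background correction, the Elavl4 values of the groups overlapped.

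The size of these differences depended on how the background was treated. The offset of 50 that is added with normexp makes changes of dim probes smaller. In the intensities deposited by the authors, which are background-subtracted and divided by 1 factor per array, Elavl3 had values of 1.07, 1.05 and 1.29 in mutants and 0.725, 0.957 and 0.776 in wildtypes, with means 1.39 times apart. The deposited intensities of Elavl4 were 1.59, 1.96 and 1.43 in mutants and 1.21, 1.40 and 1.04 in wildtypes, with means 1.36 times apart. On a log2 scale the deposited values gave 0.48 (SE 0.14) for Elavl3 and 0.45 (SE 0.16) for Elavl4, and again neither passed (limma adjusted p = 0.391 and 0.424).

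Elavl2 encodes HuB, the third neuronal member of the family, and lies outside the 10 genes. Its log2 intensities were 6.67, 6.44 and 6.35 in mutants a, b and c and 6.98, 6.89 and 6.84 in wildtypes d, e and f, so that its values were separated in the other direction from those of Elavl3 and Elavl4. It was above background on 3 of 3 wildtype but only 1 of 3 mutant arrays. The log2 fold change of -0.42 (SE 0.10) did not pass either (limma adjusted p = 0.219). With the deposited values it was -0.98 (adjusted p = 0.354).

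Tubb3 encodes class III beta-tubulin, the tubulin isotype used most widely to stain neurons. Its log2 intensities were 7.17, 7.21 and 7.25 in mutants a, b and c and 7.03, 7.13 and 7.01 in wildtypes d, e and f. The mutants lay within a narrow band just above wildtype e, and the groups did not overlap in any of the 18 alternative ways of processing. Many of these kept the same log2 values and changed only the filter, variance model, genes or arrays used. In those an overlap could not arise. The means of 7.21 ± 0.04 (SD, n = 3) and 7.06 ± 0.06 (SD, n = 3) gave a log2 fold change of 0.15 (SE 0.07, 95% interval -0.02 to 0.32), which did not pass (limma adjusted p = 0.462; exact two-sided permutation p = 0.1). With the deposited values the log2 fold change was 0.25 (SE 0.10, adjusted p = 0.449). Tubb3 lies on chromosome 8, as does Fkbp8, with 542 protein-coding genes between them in the RefSeq gene order of GRCm38.p6.

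**Figure D2:**
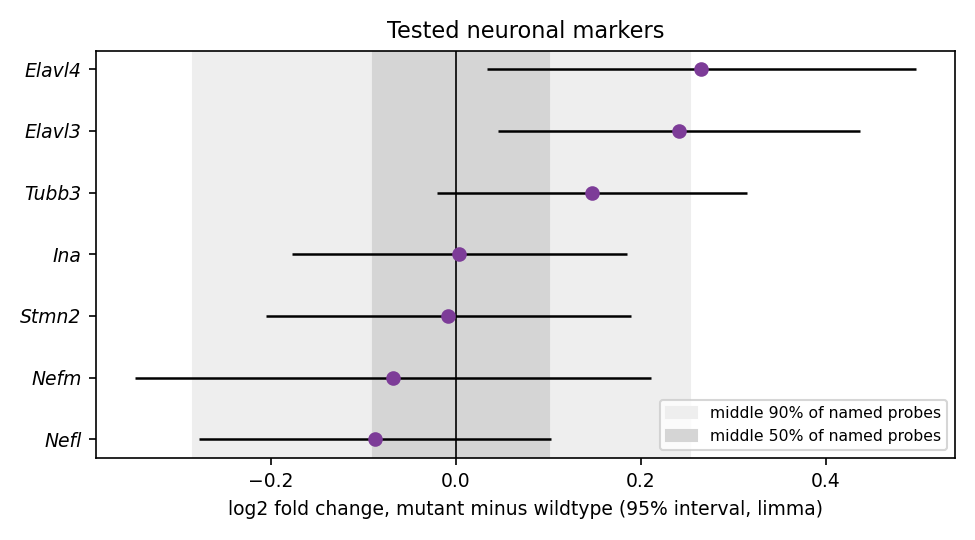
Log2 fold change, mutant minus wildtype (horizontal axis), of the 7 tested neuronal markers, as points with 95% intervals from limma, over bands that hold the middle 50 and 90 percent of the changes of all tested probes with a single symbol. Only the intervals of Elavl4 (0.03 to 0.50) and Elavl3 (0.05 to 0.44) exclude 0, before adjustment over all probes.

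The DNA upstream of the 3 separated genes is shown with that of Ina, whose groups overlapped on the same arrays. RefSeq promoter windows of build GRCm38.p6 were at hand for 6 of the 10 genes (10 windows, since Elavl4 and Dcx have several starts), and the 250 bases before each start were searched on both strands. Capitals mark CAGCTG or CAGATG, the E-box letters that proneural basic helix-loop-helix factors can bind, TCAGCACC, letters from the first part of the element bound by the repressor REST, and TATAAA.

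Elavl3, chr9:22052024-22052273, minus strand: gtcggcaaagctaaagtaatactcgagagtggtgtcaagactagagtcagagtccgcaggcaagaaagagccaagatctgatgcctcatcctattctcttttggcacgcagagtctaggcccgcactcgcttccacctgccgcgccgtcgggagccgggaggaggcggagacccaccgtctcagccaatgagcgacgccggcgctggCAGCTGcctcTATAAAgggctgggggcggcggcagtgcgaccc
Elavl4, chr4:110287528-110287777, minus strand: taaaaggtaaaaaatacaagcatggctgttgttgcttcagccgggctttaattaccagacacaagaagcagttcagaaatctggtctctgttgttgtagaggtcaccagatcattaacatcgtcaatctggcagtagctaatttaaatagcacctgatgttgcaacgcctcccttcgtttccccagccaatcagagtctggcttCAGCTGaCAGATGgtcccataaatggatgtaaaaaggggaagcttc
Tubb3, chr8:123411303-123411552, plus strand: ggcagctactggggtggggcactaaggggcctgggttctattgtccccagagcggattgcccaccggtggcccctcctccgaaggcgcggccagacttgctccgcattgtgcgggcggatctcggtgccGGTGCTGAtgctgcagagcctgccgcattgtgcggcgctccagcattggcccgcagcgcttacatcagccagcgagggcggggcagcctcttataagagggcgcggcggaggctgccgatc
Ina, chr19:47014431-47014680, plus strand: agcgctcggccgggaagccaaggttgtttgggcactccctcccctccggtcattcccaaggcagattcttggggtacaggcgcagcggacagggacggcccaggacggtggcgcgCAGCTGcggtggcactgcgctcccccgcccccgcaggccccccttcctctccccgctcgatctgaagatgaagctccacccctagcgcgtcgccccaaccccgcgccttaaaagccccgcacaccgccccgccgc

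The Elavl4 window printed is 1 of 4, chosen because it holds both E-box forms, at 46 and 39 bases before the start; the window of a neighbouring start overlaps it and holds the same letters. CAGCTG occurred 43 bases before the start of Elavl3 and 135 bases before that of Ina, and in 13% of all 32851 windows of this length. CAGATG was found for Elavl4 alone of the 6 genes and in 14.4% of all windows. TCAGCACC lay on the opposite strand of the Tubb3 window, 121 bases before the start, so the capitals there are its reverse complement, and it occurred in 1.32% of all windows. TATAAA was in the windows of Elavl3 and Dcx and in 12.4% of all. CAGCTG was thus present both for genes with separated values and for Ina, and a match in letters is a description of the sequence only.

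Stmn2 encodes a stathmin that destabilises microtubules in growth cones. Its log2 intensities were 6.91, 6.65 and 6.75 in mutants a, b and c and 6.76, 6.82 and 6.75 in wildtypes d, e and f. The 3 mutants spanned the wildtype values, with mutant a highest and mutant b lowest of all 6 arrays. The log2 fold change was -0.01 (SE 0.09, 95% interval -0.21 to 0.19, limma adjusted p = 0.978). Its relative Stmn3 was at 6.98, 7.28 and 7.30 in mutants and 6.83, 7.07 and 6.86 in wildtypes (log2 fold change 0.27, SE 0.11, adjusted p = 0.382), and Stmn4 at 0.03 (SE 0.09, adjusted p = 0.909).

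Dcx encodes doublecortin, a microtubule-binding protein of migrating neurons. Its first probe had log2 intensities of 6.39, 7.01 and 6.16 in mutants a, b and c and 6.28, 6.44 and 6.13 in wildtypes d, e and f. Only the mutant b spot was above background. No fold is given, since 5 of the 6 spots were not above background. The groups overlapped (exact two-sided permutation p = 0.6, smallest possible 0.1). The other probe gave 0 of 6 spots above background, at 5.93 to 6.35, so the bright spot on mutant b was seen with 1 of 2 probes. Dcx is X-linked, and no difference between the sexes could be set apart from genotype.

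Intermediate filament genes gave no separated values. Nefl, the light neurofilament subunit, had log2 intensities of 6.85, 6.77 and 6.80 in mutants a, b and c and 6.77, 7.01 and 6.91 in wildtypes d, e and f. All 3 mutants fell inside the range set by wildtypes d and e. The means of 6.81 ± 0.04 (SD, n = 3) and 6.90 ± 0.12 (SD, n = 3) gave a log2 fold change of -0.09 (SE 0.08, 95% interval -0.28 to 0.10, limma adjusted p = 0.7).

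Nefm, the medium subunit, had log2 intensities of 6.58, 6.41 and 6.72 in mutants a, b and c and 6.40, 6.78 and 6.74 in wildtypes d, e and f. Mutant b and wildtype d were both low and not above background, so the spread inside each group was larger than the difference between them. The log2 fold change was -0.07 (SE 0.12, 95% interval -0.35 to 0.21, limma adjusted p = 0.85). The heavy subunit Nefh was not above background on any array, and peripherin (Prph), an intermediate filament of peripheral and motor neurons, was at -0.003 (log2 fold change, SE 0.10, adjusted p = 0.992).

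Ina encodes alpha-internexin, a filament subunit that is made early in many central neurons. It had the strongest signal over its local background of the 10 probes (4.87 times after subtraction, median of the 6 arrays). Its log2 intensities were 8.27, 8.29 and 8.40 in mutants a, b and c and 8.24, 8.31 and 8.40 in wildtypes d, e and f. The 2 groups covered the same range, and the log2 fold change was 0.004 (SE 0.08, 95% interval -0.18 to 0.18, limma adjusted p = 0.988), so that on this scale a change of more than 1.14-fold in either direction lay outside the interval.

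Cntn2 encodes TAG-1, an adhesion molecule on early commissural and motor axons. All 6 of its spots were not above background, with log2 intensities of 6.04 to 6.39 in mutants and 6.20 to 6.37 in wildtypes. No fold is given, and at this signal a difference was not detectable. Of the same family, Cntn1 was bright enough to be tested (log2 fold change 0.12, SE 0.08, adjusted p = 0.582), and Cntn4 and Cntn6 were not above background.

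Across the 6 arrays the markers did not vary as 1 block. Over the 21 pairs of tested markers, Pearson's r between log2 intensities ran from -0.42 to 0.97 with a median of 0.12 (n = 6 arrays, which share their normalization and the difference between the groups). The highest was that of Tubb3 and Elavl3, at 0.97, and at 0.88 after the mean of each group was taken off. Elavl3 and Elavl4 were at 0.63 and, within groups, at -0.05, so the higher value came with the difference between the groups. Nefl and Nefm, which are neighbours on chromosome 14 with 0 protein-coding genes between them, were at 0.76 and at 0.78 within groups. This was not particular to neighbours. Nefm was at 0.745, and at 0.772 within groups, with Ina on chromosome 19. With Elavl3 on chromosome 9 it was at 0.23, but at 0.796 within groups. The mean of the 7 markers, each centred on its own mean over the 6 arrays, was 0.04, 0.001 and 0.07 in mutants a, b and c and -0.12, 0.05 and -0.04 in wildtypes d, e and f. These means overlapped between the groups.

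**Figure D3:**
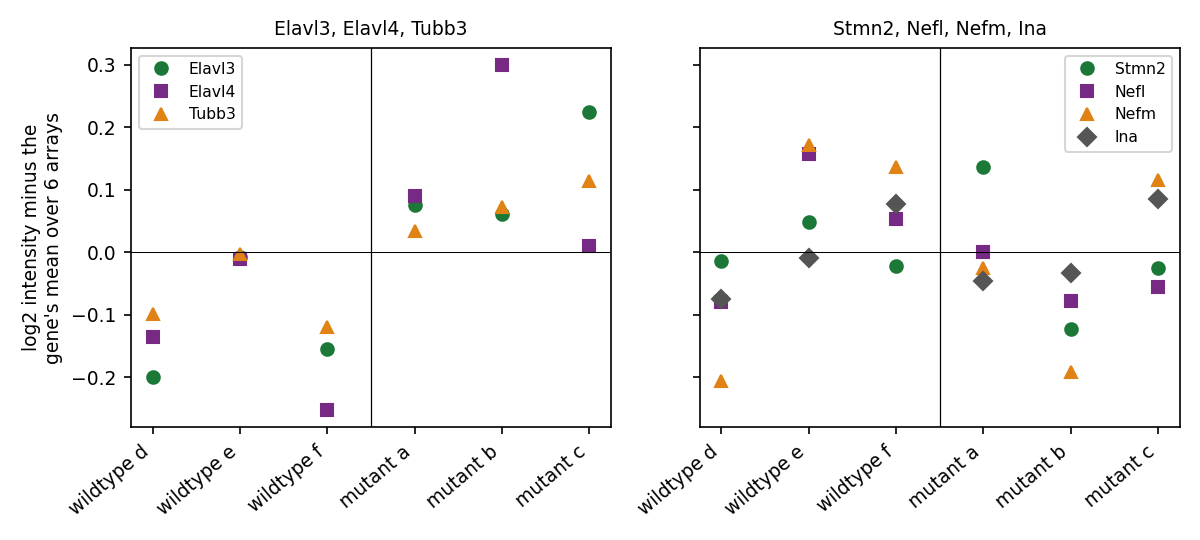
Log2 intensity of each tested marker minus its own mean over the 6 arrays (vertical axis), by array. Left, Elavl3, Elavl4 and Tubb3 lie below their mean on wildtype d, e and f and above it on mutants a, b and c; right, Stmn2, Nefl, Nefm and Ina mix the groups, with Nefm lowest on wildtype d and mutant b.

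The genes whose values followed the mean of the 7 markers most closely were Ttc39b (r = 0.99), Scarb2 (0.99), Fbxl15 (0.99), Pank3 (0.98) and Shox2 (0.98), the highest of 13089 ranked probes over 6 arrays. None of the 5 passed the test between the groups (limma adjusted p = 0.446 to 0.827). The order is a description of these 6 arrays. It ranks single probes, and another tested probe of Ttc39b went the other way. That probe had a log2 fold change of -0.126 (SE 0.09), against 0.135 (SE 0.09) for the ranked one.

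Other genes of the neuronal cytoskeleton and growth cone were read next. Of 28 listed genes 24 had a probe and 20 were tested. By limma, 0 were called (2 had an unadjusted p under 0.05, against 12.2% of all tested probes). There were 9 positive and 11 negative log2 fold changes (52.4% of all tested probes were positive), with a median of -0.01. Dpysl3, a collapsin response mediator protein of growing axons, had the smallest p. It was at 9.85, 9.80 and 9.73 in mutants a, b and c and at 10.21, 10.22 and 10.15 in wildtypes d, e and f, with no overlap, and its log2 fold change of -0.40 (SE 0.07) did not pass (adjusted p = 0.139, 0.102 to 0.469 over the alternatives). Next came Stmn3, given above, then Marcks (0.19, SE 0.10, adjusted p = 0.471) and Dpysl5 (0.24, SE 0.13, adjusted p = 0.477; wildtype e was left out for a bad spot). The tau gene Mapt and Dpysl2 were not above background on any array.

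Among neuronal RNA-binding proteins beyond Elavl3 and Elavl4, 8 of 15 listed genes were tested and limma called 0. At an unadjusted p under 0.05 there were 2, both lower (5.81% of all tested probes). The median log2 fold change of the 8 was 0.03, with 4 positive and 4 negative. Besides Elavl2, the smallest p belonged to Ptbp2, a splicing regulator of differentiating neurons. Ptbp2 was at 10.04, 9.16 and 10.03 in mutants a, b and c and at 10.52, 10.32 and 10.48 in wildtypes d, e and f. Mutant b lay lowest by far, and the log2 fold change of -0.70 (SE 0.22) did not pass (adjusted p = 0.288). Rbfox2 (0.18, SE 0.08, adjusted p = 0.421) and Rbfox1 (0.19, SE 0.09, adjusted p = 0.427) followed. Of 14 genes of neuronal adhesion and the axon surface 8 were tested, with a median of 0.06, and limma called 0 (0 had an unadjusted p under 0.05). Robo3 (-0.25, SE 0.11), Dcc (0.16, SE 0.08), Cntnap2 (-0.26, SE 0.14) and Ncam2 (0.11, SE 0.07), receptors and adhesion molecules of axons, had the smallest p-values of that list (adjusted p = 0.41 to 0.553).

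Transcription factors of young neurons, which act upstream of such markers, held the 1 related gene that passed. Of 27 listed genes 18 were tested, 13 with positive and 5 with negative log2 fold changes (52.4% of all tested probes were positive) and a median of 0.06. At an unadjusted p under 0.05 there were 7 higher and 1 lower (6.43% and 5.81% of all tested probes). The 1 lower gene was Isl1 (-0.26, SE 0.11, limma adjusted p = 0.393), which is also in the motor neuron list below. The mean of the 18 genes, each centred over the 6 arrays, was 0.04 to 0.17 in mutants and -0.16 to -0.05 in wildtypes, which did not overlap. Of single tested probes 19.7% did not overlap in either direction. No such share was computed for means of lists, here or below. Nhlh2, a basic helix-loop-helix factor of newly born neurons, had log2 intensities of 6.86, 7.07 and 7.10 in mutants a, b and c and 6.42, 6.24 and 6.22 in wildtypes d, e and f. Its spots were above background in 3 of 3 mutants but in 0 of 3 wildtypes, and it rose at least 1.52-fold (limma adjusted p = 0.0456). The filter asked for 3 of 6 arrays above background, so Nhlh2 entered the test only through the group where it was high. Its filter and its p-value thus draw on the same spots. Nhlh2 kept its call in 6 of 17 alternatives (no background correction, no filter, array weights, all spots kept, probes averaged per gene, and without mutant a). It lost its call in the other 11, among them without mutant b (adjusted p = 0.15) or c (0.11) and without wildtype d (0.103), e (0.208) or f (0.24). The call was also lost without genes of chromosomes X and Y (limma adjusted p = 0.0608), with an intensity trend (0.0504) and with cyclic loess (0.0621). The log2 fold change of Nhlh2 was 0.72, and 0.67 to 0.79 with an array left out, values that are no bound. With the deposited values it was 1.86 (adjusted p = 0.117), with floored background-subtracted values 1.83 (0.128), and with median centring 0.73 (0.0928).

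Neurod4, a related factor, was at 7.884, 7.997 and 7.839 in mutants a, b and c and at 6.946, 7.378 and 6.987 in wildtypes d, e and f. The groups did not overlap, and the difference of 0.80 on the log2 scale (SE 0.12) missed the threshold (limma adjusted p = 0.0821). It passed without wildtype e (0.0262), the wildtype with the highest value. The zinc finger factor Myt1, above background on 0 of 3 wildtype arrays, with mutants at least 1.56-fold higher (adjusted p = 0.136), and Lhx2 (0.51, SE 0.11, adjusted p = 0.192), above background on 1 of 3 wildtype arrays, did not pass. Myt1, like Nhlh2, entered the test only through its mutant spots. On Elavl3, Elavl4 and Tubb3 the largest log2 fold change was 0.27, and the smallest absolute change of any probe that passed was 0.54. These lists were drawn up with results of these arrays known, so their counts are not independent evidence.

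**Figure D4:**
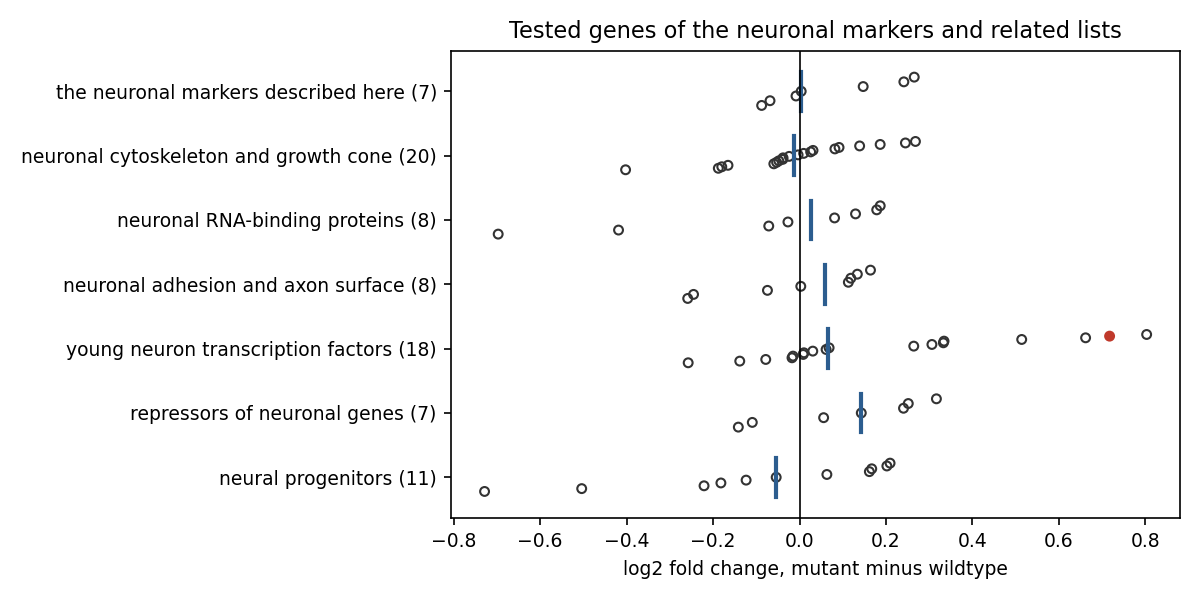
Log2 fold change, mutant minus wildtype (horizontal axis), of each tested gene in the neuronal markers and 6 related lists, with the number tested in parentheses and the median as a blue bar. Circles are genes at their brightest probe and the filled red one passed the test (Nhlh2, adjusted p = 0.0456); the 7 neuronal markers lie between -0.09 and 0.27.

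Genes that hold back neuronal genes, and progenitor genes, were read beside the markers. Of 7 tested repressors limma called 0 (3 had an unadjusted p under 0.05, all higher, as did 6.43% of all tested probes), with a median log2 fold change of 0.14. The centred mean of the repressors was 0.03 to 0.10 in mutants and -0.08 to -0.03 in wildtypes, which did not overlap. Rest, the zinc finger repressor that silences neuronal genes in other cells, was at 10.26, 10.25 and 10.40 in mutants a, b and c and at 10.18, 10.08 and 9.90 in wildtypes d, e and f (0.25, SE 0.09, adjusted p = 0.344). Its corepressor Rcor1 (0.32, SE 0.08, adjusted p = 0.236), the bHLH inhibitor Id3 (0.24, SE 0.08, adjusted p = 0.325) and Rcor2 (-0.11, SE 0.07, adjusted p = 0.578) did not pass either. Of 11 tested progenitor genes limma called 0 (1 higher and 2 lower had an unadjusted p under 0.05, against 6.43% and 5.81% of all tested probes), with a median of -0.05. The centred mean of the progenitor genes was -0.14 to 0.01 in mutants and 0.02 to 0.06 in wildtypes, with a narrow gap between mutant c (0.0099) and wildtype d (0.0249). Among these, Hes3 (-0.73, SE 0.12, adjusted p = 0.122), the neural progenitor factor Sox2 (-0.50, SE 0.19, adjusted p = 0.356), Fabp7 (0.21, SE 0.09, adjusted p = 0.397) and Nes (0.16, SE 0.07, adjusted p = 0.424) had the smallest p-values. For Sox2, mutant b lay lowest by far, at 9.083, against 9.885 and 9.827 in mutants a and c. The Sox2 values of wildtypes d, e and f were 10.13, 9.999 and 10.18.

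Markers of other cells and of position are given beside the neuronal markers. Over all tested probes, 52.4% had a positive log2 fold change. At an unadjusted p under 0.05, 6.43% were higher and 5.81% lower in mutants. The groups did not overlap for 19.7% of single probes. Of 11 tested genes of peripheral neurons and neural crest, another source of neuronal RNA in this tissue, 7 had negative log2 fold changes, and limma called 0 (2 had an unadjusted p under 0.05, both lower). Their mean, centred over the 6 arrays, was -0.05 to -0.03 in mutants and -0.01 to 0.07 in wildtypes, with no overlap. The motor neuron list had 4 tested genes with a mean of -0.14 to 0.02 in mutants and -0.05 to 0.12 in wildtypes, and its cholinergic genes Chat and Slc18a3 were not above background on any array. Of its 4 tested genes, 2 had negative (Isl1 and Isl2) and 2 positive log2 fold changes. Limma called 0 of them (1 had an unadjusted p under 0.05, Isl1, lower in mutants). Erythroid genes, which belong to circulating blood, had 9 of 9 tested members with a positive log2 fold change, though Hba-x (0.0012) and Hbb-bh1 (7.4e-05) were near 0. The mean of the erythroid genes was 0.03 to 0.20 in mutants and -0.34 to 0.04 in wildtypes, which overlapped. Limma called 0 (3 had an unadjusted p under 0.05, all higher). The lists of endothelium, somite, lateral plate and gut had median log2 fold changes of -0.01 to 0.02, and limma called 0 in each (at most 1 gene a direction had an unadjusted p under 0.05). Surface ectoderm had 4 of 5 tested genes with negative log2 fold changes, a median of -0.09 and 0 called by limma (1 had an unadjusted p under 0.05, Tfap2c, at -0.78 with adjusted p = 0.264). Its mean was -0.16 to -0.05 in mutants and -0.03 to 0.19 in wildtypes, which did not overlap. Of the position markers, 6 of 8 posterior trunk genes had negative and 5 of 5 tested forebrain and midbrain genes positive log2 fold changes, with medians of -0.10 and 0.13 and 0 called by limma (1 gene of each list had an unadjusted p under 0.05). In the forebrain and midbrain list this gene was Lhx2, which is also counted among the transcription factors of young neurons, and En2 was near 0 (0.0036). The mean of the posterior trunk genes was -0.11 to -0.02 in mutants and -0.0072 to 0.10 in wildtypes, again without overlap, and that of the forebrain and midbrain genes overlapped. The part of these cells or of the level of the dissection in the values of Elavl3, Elavl4 and Tubb3 was not tested.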

How the data were processed

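Total RNA of 3 mutant and 3 wildtype samples was measured on 1-colour CodeLink arrays. Per the file headers, spots were quantified with CodeLink Expression Analysis 4.1.0.29054. The deposited intensity values are the spot mean, the local background median, their difference and that difference divided by 1 factor per array; the deposited series table equals the last (largest difference 0), on a linear scale with each array's median near 1.

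From these, log2 values were computed with limma 3.58.1 in R 4.3.3: normexp background correction (offset 50) over all unmasked spots, removal of control spots and of those with a scanner mark for contamination, irregular shape or masking (339 to 508 per array), and quantile normalization. Tested probes were above background on 3 or more of 6 arrays, with 2 or more usable spots in each group (lmFit, eBayes, two-sided). The fit was checked on simulated data. Symbols were taken from the platform annotation if the array file gave the same accession (21781 of 21880 listed probes), updated through the RefSeq table of GRCm38.p6, or from RefSeq accessions (417) or array descriptions (435). A gene with several tested probes was taken at its brightest. The genes named are the 10 markers, Fkbp8, up to 4 genes of smallest p in each related list and the 5 most like the markers' mean; other genes, such as relatives of the markers (Elavl2, Stmn4, Nefh, Prph, Cntn1), Tfap2c and undetected or position-marking genes, come from the same lists and were singled out after their values were seen. The markers and lists were chosen with earlier results of these data known. The alternatives were other normalizations, background treatments, filters, variance models and spot flags, the deposited table, genes of chromosomes X and Y left out, and each array left out. The number of arrays limits the precision.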

Additional observations from a re-analysis of the deposited data

How the results depend on the processing

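No tested marker passed in limma under any of the 18 alternatives (lowest adjusted p = 0.266, Elavl3 with the filter on all 6 arrays). Elavl3, Elavl4, Tubb3 and Nefl kept their direction in all 18, at 0.19 to 0.48, 0.18 to 0.45, 0.12 to 0.25 and -0.17 to -0.03 on the log2 scale. The highest values of the first 3 came with background-subtracted or deposited values, which have no offset. Without mutant b the log2 fold change of Elavl4 was 0.18. The markers separated with higher values numbered 2 or 3 throughout, and those separated with lower values 0 to 2 when arrays were left out (2 without wildtype d, 1 without mutant a). A marker separated in the main analysis could not overlap, or change direction, in alternatives that kept the same log2 values. Those were the filters, variance models, and genes or arrays left out.

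Changes near 0 turned sign. Ina was at -0.0219 with cyclic loess, at -0.0083 without background correction, and at -0.0379 to 0.0439 with an array left out. Stmn2 was at 0.0057 without background correction and at -0.0783 to 0.0515 with an array left out, and Nefm at -0.188 to 0.0108. The cause was not tested. The median of the tested markers was 0.0755 with the filter on all 6 arrays, which leaves out Nefm, and -0.0172 to 0.0515 with an array left out.

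Over all probes, 26 passed. The count was 16 with median centring, 13 with floored background-subtracted values, 15 with deposited values, 16 with the filter on all 6 arrays, 14 without genes of chromosomes X and Y, and 11 to 37 with an array left out (11 without mutant b, wildtype d or wildtype f, 14 without wildtype e). No paired analysis was possible because the groups carry different replicate letters. Low signal limits Dcx, Cntn2 and Nefm most. Cntn2 was above background on 0 arrays and Dcx on 1, with 1 of its 2 probes, so neither was tested. Nefm was above background on 2 arrays of each group.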
